A study of Mus musculus with 6 samples.

Results

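The contacts described here are those among restriction fragments of the middle V genes of the mouse immunoglobulin heavy chain (Igh) locus. They were counted by chromosome conformation capture carbon copy (5C), in which a forward (FOR) and a reverse (REV) primer anneal side by side at the junction of 2 ligated HindIII fragments, are joined and are counted by sequencing. Members were chosen by position, as all forward and reverse primer pairs with both fragment midpoints on chromosome 12 between 115139357 and 115709849 (mm9), and 650 of the 12656 Igh pairs met this rule. The comparison was among 3 groups of 2 libraries. Resting B cells were CD43- cells isolated directly from mouse spleen with magnetic beads. Pro-B cells were Rag2 deficient bone marrow cells expanded in IL7 for 4 days. MEF, murine embryonic fibroblasts, were taken directly from culture. The labels give no genotype for resting B cells and MEF, and no age or strain for any group. Cell type, tissue and culture differ together between the groups and cannot be told apart.

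The V segments of Igh each encode most of the variable domain of an antibody heavy chain, and a B-cell progenitor joins 1 of them to a D and a J segment. Because V segments lie at very different distances from the D and J segments, folding of the locus in pro-B cells is known to bring distant V segments closer to them. The middle V genes lie between the proximal V genes, which are nearest to the D segments and are mostly of the families Ighv2 and Ighv5, and the distal V genes, which are mostly of the large family Ighv1. They hold several small families, among them Ighv3, Ighv7, Ighv9 and Ighv14. Pro-B cells without Rag2 cannot start this joining and keep both alleles unrearranged, fibroblasts do not use the locus, and resting B cells carry joined alleles in which the DNA between the chosen V and D segments has been removed. Single V segments are not assigned to fragments below.

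The middle V block held 25 forward and 26 reverse fragments over 570 kb, with a median length of 2709 bp (range 1150 to 12585). At its 3′ end, FOR 204 (115139357 to 115145663) was separated from REV 192 (115093815 to 115096374), the last fragment of the proximal V genes. At its 5′ end, REV 374 (115706727 to 115709849) was followed by FOR 377 (115723372 to 115724782), the first of the near distal V genes. The midpoints of the 650 pairs lay 1.59 to 566 kb apart, with a median of 164 kb. In 16 pairs no base lay between the 2 fragments, called adjoining pairs below. Of the 650 pairs, 617 had at least 10 reads in at least 2 libraries and were tested.

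Libraries held 20580457 to 24191175 valid read pairs. Within the middle V genes fell 5.82% and 5.17% of the Igh reads of resting B replicates 1 and 2 (95% Wilson intervals 5.81 to 5.83 and 5.16 to 5.18). The shares were 15.9% and 12.9% in pro-B cells, and 11.2% and 12.0% in MEF. Median reads per member pair were 130.5 and 107 in resting B cells, with 195.5 and 233 in pro-B cells and 202 and 357 in MEF. Replicates of resting B cells were closest to each other (Pearson's r of log2 counts over tested members 0.98), followed by MEF (0.969) and pro-B cells (0.873), across pairs that are not independent. The median absolute log2 difference between replicates was 0.32 in resting B cells, 0.99 in pro-B cells and 0.38 in MEF. Reads between chromosomes made up 3.01% and 3.41% in resting B cells, with 0.554% and 2.74% in pro-B cells and 2.91% and 2.02% in MEF.

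Contacts within the middle V genes were fewer in resting B cells than in either of the other cell types. Summed over the block, resting B libraries held 46505 and 45397 CPM (reads divided by the TMM-scaled library size). Pro-B libraries held 187314 and 113647 CPM, and MEF libraries held 143982 and 92569 CPM. Both resting B libraries lay below all 4 others, while pro-B and MEF libraries overlapped. The log2 fold of resting B cells over MEF was -1.36 ± 0.47 (SE, 2 libraries a group; edgeR's quasi-likelihood test, Benjamini-Hochberg adjusted p = 0.0403 over 55 region pairs), and in that comparison 16.4% of region pairs were called lower and 32.7% higher. The fold of resting B cells over pro-B cells was -1.71 ± 0.47 (edgeR, adjusted p = 0.0271), with 21.8% of region pairs lower and 20% higher. The fold of pro-B cells over MEF was 0.35 ± 0.46 and did not pass (edgeR, adjusted p = 0.769), where 9.09% of region pairs were higher and 0% lower. A lower count can come from fewer contacts in every cell or from fewer cells or alleles that make them, and these cannot be told apart. Without resting B replicate 1 or 2, the sums gave -1.38 and -1.34 against MEF and no longer passed (edgeR, adjusted p = 0.28 and 0.31). Without MEF replicate 1 the fold was -1.02 (edgeR, adjusted p = 0.11), and without the adjoining pairs it was -0.99 (edgeR, adjusted p = 0.069). Over pro-B cells the fold was -1.73 and -1.69 without resting B replicate 1 or 2 (edgeR, adjusted p = 0.22 and 0.21) and -1.32 without pro-B replicate 1 (edgeR, adjusted p = 0.071).

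By separation, the fold of resting B cells was largest in size under 50 kb, and differences between the classes were not tested. Pairs under 50 kb apart summed to 40440 and 39935 CPM in resting B cells, 175082 and 104390 CPM in pro-B cells, and 134893 and 83096 CPM in MEF. Between 50 and 100 kb the sums were 2079 and 1788 CPM in resting B cells, 4359 and 2749 CPM in pro-B cells, and 3212 and 3298 CPM in MEF. Pairs over 400 kb apart summed to 756 and 706 CPM in resting B cells, 1475 and 1240 CPM in pro-B cells, and 967 and 954 CPM in MEF. In each of the 5 classes both resting B libraries lay below all 4 others. Of the 5 separation classes, 2 passed as lower in resting B cells than in MEF, under 50 kb (-1.44 ± 0.46; edgeR, adjusted p = 0.0456) and 100 to 200 kb (-0.83 ± 0.21; edgeR, adjusted p = 0.0206), where 15.9% of 113 sums by region pair and separation were called lower and 26.5% higher. The other 3 had folds of -0.75 ± 0.27, -0.58 ± 0.20 and -0.39 ± 0.19 in order of separation. All 5 passed as lower in resting B cells than in pro-B cells, by -1.80 under 50 kb and by -0.86 to -0.96 above it, where 31.9% of sums were lower and 16.8% higher. None of the 5 passed between pro-B cells and MEF (0.36, 0.13, 0.03, 0.38 and 0.50), where 13.3% of sums were called higher and 0% lower. With gene desert or total cis reads as library size, 1 class in place of 2 passed against MEF and 1 in place of 5 against pro-B cells. Leaving out either resting B library gave 0 classes in both comparisons, and against MEF, leaving out MEF replicate 1 or 2 gave 0 or 1 and leaving out a pro-B library gave all 5. Against pro-B cells, leaving out pro-B replicate 1 gave 3.

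**Figure D1:**
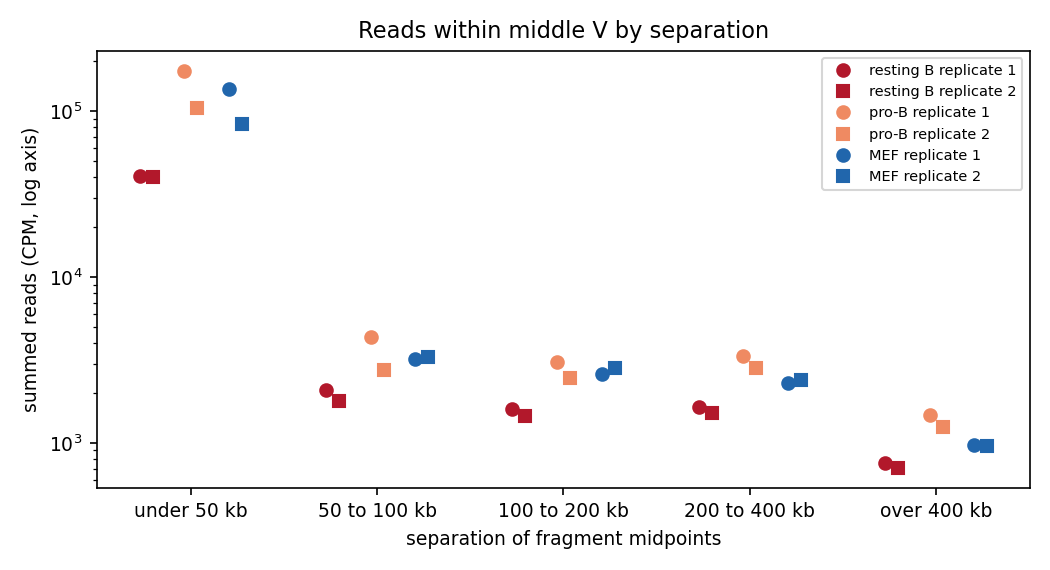
Summed CPM of the middle V pairs (log axis) by separation of the fragment midpoints, with a point for each of the 6 libraries. Both resting B libraries lie below the other 4 in every class, and the spread between pro-B replicates is widest under 50 kb.

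The make-up of the block's reads by distance also varied between the cell types. Adjoining pairs held 53.0% and 51.8% of the block's reads in resting B cells, with 68.2% and 60.7% in pro-B cells and 66.1% and 58.7% in MEF. Pairs over 50 kb apart held 13.0% and 12.0% in resting B cells, with 6.53% and 8.15% in pro-B cells and 6.31% and 10.2% in MEF. Resting B libraries thus had the highest long-range share within the block, although their long-range sums were the lowest. Log2 CPM fell with log2 separation by slopes of -0.72 and -0.67 in resting B cells, with -0.86 and -0.85 in pro-B cells and -0.88 and -0.83 in MEF, as a description over pairs that share fragments. The sums rest on few pairs: per library, 51.1% to 62.9% of the block's reads came from its 10 strongest.

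The 5 pairs with the highest mean CPM were all adjoining ones in pro-B cells and in MEF. FOR 340 with REV 339, 2.03 kb apart, held 7706 and 6869 CPM in resting B cells, 10323 and 8777 CPM in pro-B cells, and 18172 and 7511 CPM in MEF. FOR 334 with REV 335, 6.79 kb apart, held 2910 and 2911 CPM in resting B cells, 17863 and 10179 CPM in pro-B cells, and 8123 and 6052 CPM in MEF. The first pair overlapped between resting B cells and MEF, whereas the second was lowest in both resting B libraries. FOR 369 with REV 370 ranked second in both resting B cells (4291 and 4185 CPM) and MEF (12364 and 8247 CPM). In resting B cells 2 pairs that do not adjoin were among the 5, FOR 306 with REV 312 (2551 and 5254 CPM) and FOR 204 with REV 208 (2479 and 2192 CPM). The remaining leading pairs were the adjoining FOR 364 with REV 365, FOR 272 with REV 271 and FOR 287 with REV 286.

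Single primer pairs were then compared between resting B cells and MEF. Of the 617 tested members, 19 were lower and 0 higher in resting B cells (edgeR, adjusted over 11940 Igh pairs), against 0.385% lower and 0.369% higher of all Igh pairs. At an unadjusted p under 0.05, 204 members were lower and 2 higher, where 12.2% and 8.74% of all pairs were lower and higher. The median log2 fold of the members was -1.10, against -0.02 over all Igh pairs, and 527 of 617 were below 0. Both resting B libraries lay below both MEF libraries in 430 members and above both in 27, where 35.9% and 33.9% of all pairs did so. The 19 calls had adjusted p-values of 0.0383 to 0.0499 in edgeR, close to the threshold. Leaving out any resting B or MEF library, or leaving out the adjoining pairs, gave 0 calls, and leaving out a pro-B library gave 234 or 236.

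The 19 pairs had log2 folds of -6.52 to -2.95 and lay 1.59 to 218 kb apart. REV 260 (115327864 to 115330485) or FOR 367 (115693734 to 115694885) was part of 11 of them. The pair of lowest p, FOR 233 with REV 260, 115 kb apart, held 100 and 84 reads in resting B cells, 3230 and 2359 reads in pro-B cells, while MEF held 1216 and 2777 reads. Its log2 fold of resting B cells over MEF was -4.41 ± 0.50 (edgeR, adjusted p = 0.0383). FOR 241 with REV 260, 86.3 kb apart, held 65 and 56 reads in resting B cells, 1401 and 1250 reads in pro-B cells, while MEF held 620 and 1231 reads (-3.93 ± 0.47 over MEF). FOR 295 with REV 260, 115 kb apart, held 15 and 5 reads in resting B cells, 362 and 438 reads in pro-B cells, while MEF held 387 and 571 reads. In each of these pairs the resting B libraries lay far below the other 4.

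The largest fold among the named pairs was that of FOR 367 with the adjoining REV 368, whose midpoints lay 1.59 kb apart. It held 624 and 510 reads in resting B cells, 55433 and 31017 reads in pro-B cells, while MEF held 43040 and 32108 reads, a log2 fold of -6.21 ± 0.70 over MEF (edgeR, adjusted p = 0.0383). FOR 367 with REV 365, 3.24 kb apart, held 3647 and 2960 reads in resting B cells, 95372 and 54802 reads in pro-B cells, while MEF held 51836 and 68779 reads. FOR 350 with REV 348, 3.99 kb apart, held 238 and 200 reads in resting B cells, 16890 and 8155 reads in pro-B cells, while MEF held 8090 and 8039 reads (-5.32 ± 0.65 over MEF). FOR 367 with REV 370 (-5.20 ± 0.62) and FOR 272 with REV 260 (-2.95 ± 0.37) completed the 8 pairs of lowest p.

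**Figure D2:**
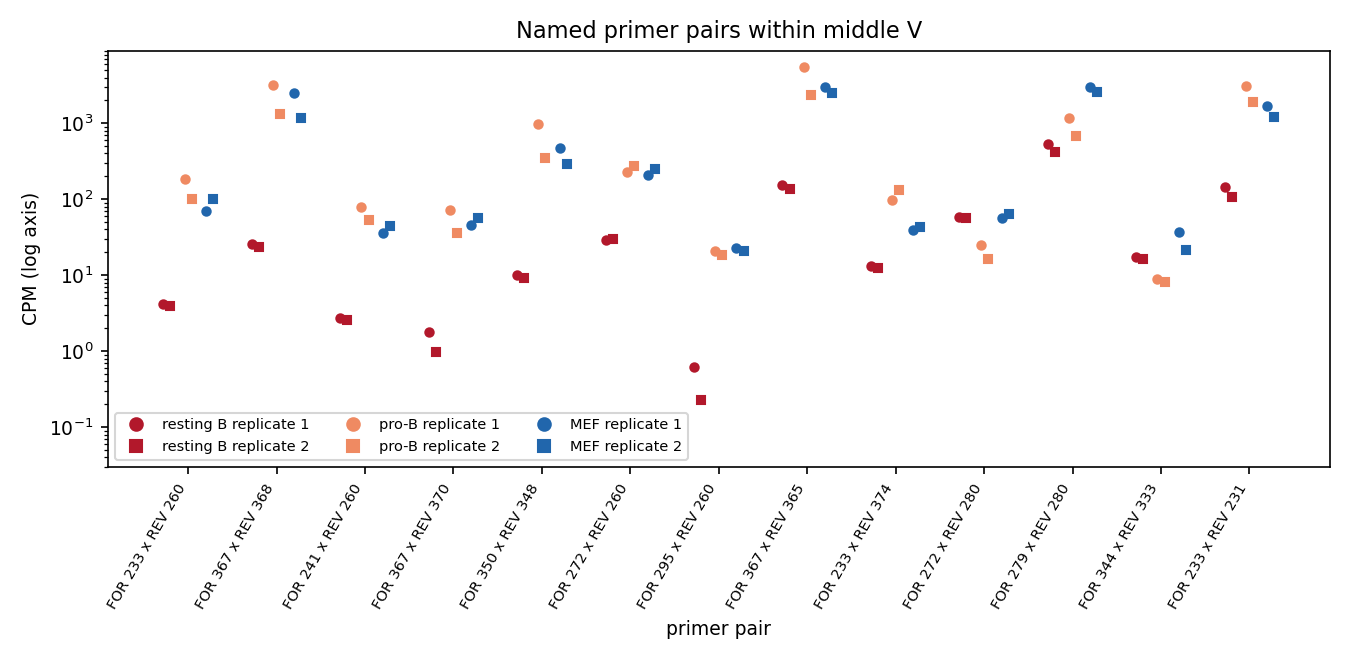
CPM (log axis) of the 13 named primer pairs in each of the 6 libraries, with circles for replicate 1 and squares for replicate 2. Resting B libraries lie lowest in 11 of the 13, and in FOR 272 with REV 280, FOR 279 with REV 280 and FOR 344 with REV 333 the pro-B libraries lie below both MEF libraries.

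More single pairs passed between resting B cells and pro-B cells, all of them lower in resting B cells. Of the 617 members, 102 were lower and 0 higher in resting B cells (edgeR with Benjamini-Hochberg), against 5.16% and 2.74% of all Igh pairs. At an unadjusted p under 0.05, 217 were lower and 11 higher, where 16.8% and 12.7% of all pairs were. The median log2 fold was -1.09, against 0.01 over all pairs, and 457 members were below 0. Both resting B libraries lay below both pro-B libraries in 318 members and above both in 76, where 29% and 33% of all pairs did so. The 102 had folds of -8.47 to -1.53 and reached separations of 494 kb, and 60 of them lay over 50 kb apart. REV 345 was part of 15, FOR 233 of 14, FOR 241 of 13, and REV 260 and REV 335 of 12 each. Leaving out any resting B or MEF library, or fitting only the 4 libraries compared, gave 0 calls, and leaving out pro-B replicate 1 or 2 gave 206 or 240.

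The 8 pairs of lowest p repeated 7 of those against MEF, and both comparisons share the resting B libraries. FOR 233 with REV 260 had a log2 fold of -5.14 ± 0.51 over pro-B cells (edgeR, adjusted p = 0.0189), FOR 241 with REV 260 of -4.64 ± 0.48, and FOR 367 with REV 368 of -6.49 ± 0.71. The pair not named above, FOR 233 with REV 231 (115209244 to 115211291), 3.54 kb apart, held 3448 and 2348 reads in resting B cells and 54877 and 45512 reads in pro-B cells. Its fold was -4.32 ± 0.49 (edgeR, adjusted p = 0.0190). MEF held 28531 and 32898 reads of this pair, between the other groups.

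Between pro-B cells and MEF no single member passed the threshold. Of the 617, 0 were higher and 0 lower (edgeR with Benjamini-Hochberg), as for all 11940 pairs (0% called in either direction). At an unadjusted p under 0.05, 18 were higher and 14 lower in edgeR, where 5% and 4.17% of all pairs were, and DESeq2 called 2 higher and 0 lower. Pro-B libraries lay above both MEF libraries in 108 members and below both in 148, where 19.3% and 22.8% of all pairs did so. The 4 of lowest p had adjusted p-values of 0.401 to 0.402 in edgeR and did not pass. FOR 233 with REV 374, which joins fragments 494 kb apart, held 313 and 272 reads in resting B cells, 1731 and 3089 reads in pro-B cells, while MEF held 674 and 1172 reads. FOR 279 with the adjoining REV 280 held 12627 and 8972 reads in resting B cells, 20778 and 15939 reads in pro-B cells, while MEF held 51394 and 69675 reads. FOR 272 with REV 280 (-1.54 ± 0.41) and FOR 344 with REV 333 (-1.79 ± 0.50) were the others. All 25 tested partners of FOR 233 had folds of pro-B cells over MEF above 0, with a median of 0.95, and in 19 of them the libraries did not overlap. Other fragments went the other way. All 23 tested partners of FOR 279 had folds below 0, with a median of -1.95, and 19 were lower without overlap. For REV 280, 22 of 25 were below 0, with a median of -0.87. Without pro-B replicate 1, 37 members passed as higher and 129 as lower in the same fit.

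**Figure D3:**
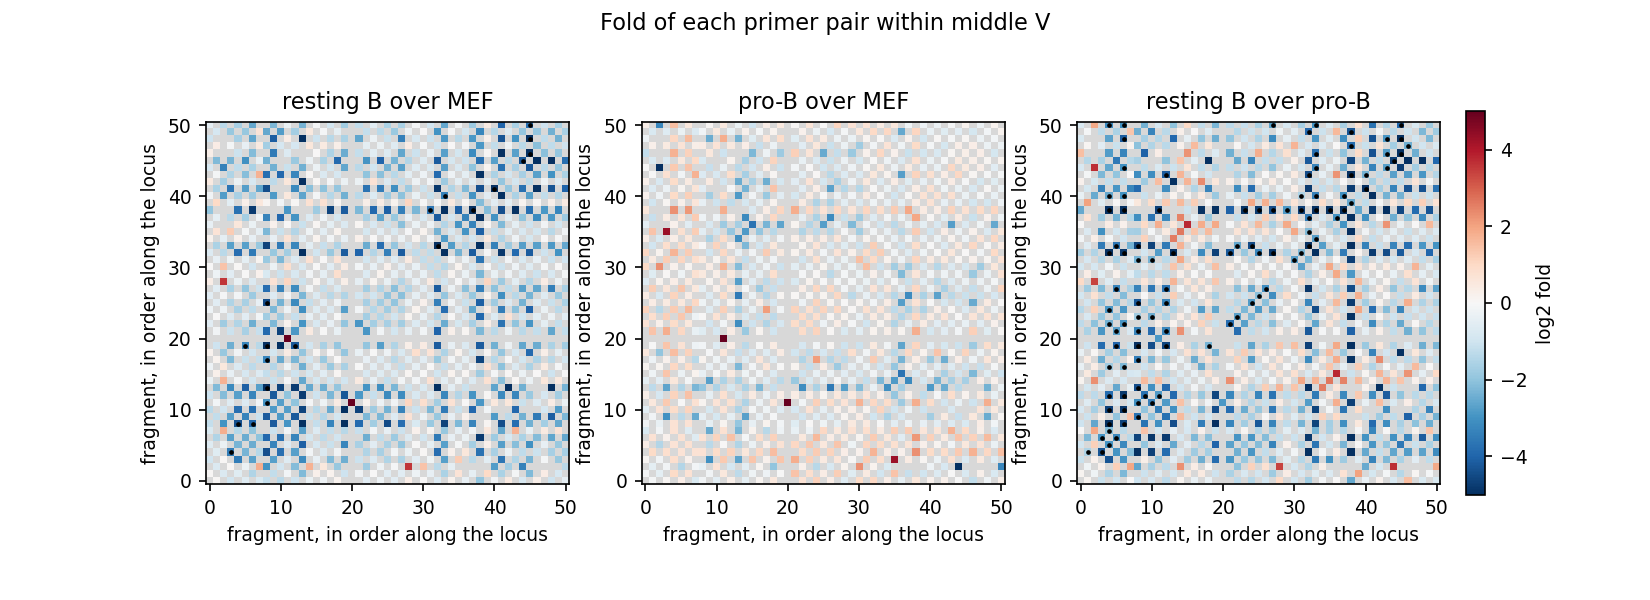
Log2 fold of each of the 650 primer pairs, with the 51 fragments in order along the locus on both axes, blue for lower in the first-named cell type and red for higher. Grey squares are pairs that were not tested or have no primer pair, and black dots (above the diagonal) mark the 19 pairs called against MEF and the 102 called against pro-B cells; folds beyond 5 in size are drawn at 5.

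The map of folds shows stripes, that is, fragments whose contacts were low with almost all partners. REV 260 had 24 of 25 tested partners with both resting B libraries below both MEF libraries, with a median log2 fold of -3.29. FOR 350 had 24 of 24, with a median of -3.12, and REV 345 had 22 of 22, with a median of -3.74. FOR 367 had 21 of 24, with a median of -2.36. Other fragments were alike, among them FOR 338 (25 of 25, median -2.71) and REV 335 (23 of 25, median -2.97). At the 3′ end, FOR 204 and REV 208 had medians of -0.44 each, with 14 and 11 of 25 partners lower without overlap, and FOR 216 had -0.70. Medians nearer 0 were also found further inside the block, as for FOR 346 (0.14), FOR 272 (-0.17) and REV 339 (-0.19). Over all Igh pairs 35.9% were lower and 33.9% higher without overlap, and of the 617 tested members 430 were lower and 27 higher. Pairs of a stripe share that fragment and are not independent. The stripes were not confined to the block, as REV 260, FOR 350, REV 345 and FOR 367 also had fewer reads with the other V regions. With the proximal V genes, REV 345 held 176 and 156 reads in resting B cells and 779 and 1168 in MEF. With the constant region the 4 fragments differed. FOR 367 held more reads in resting B cells (833 and 564) than in MEF (317 and 459). REV 260 held fewer (1294 and 1444 in resting B cells, 2064 and 3195 in MEF). Unscaled reads overlapped for REV 345 (314 and 395, against 355 and 836) and for FOR 350 (179 and 147, against 124 and 257).

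Reads of each fragment were also summed over all its partners in the block. Of the 51 fragments, 29 were lower and 0 higher in resting B cells than in MEF (edgeR with Benjamini-Hochberg over 2240 sums by fragment and partner region), against 12.6% and 19.2% of all such sums. Their median fold was -1.52, and 50 were below 0. FOR 367 had 213 and 185 CPM in resting B cells, 8799 and 3767 CPM in pro-B cells, and 5693 and 3857 CPM in MEF, a fold of -4.59 ± 0.55 over MEF (edgeR, adjusted p = 0.00429). FOR 350 (115637370 to 115639558) had 32.6 and 26.7 CPM in resting B cells, 1037 and 403 CPM in pro-B cells, and 569 and 404 CPM in MEF (-4.04 ± 0.53). In every library, the pairs with REV 365 and REV 368 held most of the reads of FOR 367. In pro-B cells and MEF, the pair with REV 348 held most of the reads of FOR 350. These sums thus largely restate pairs named above. Over single partners the median was -2.36 for FOR 367 and -3.12 for FOR 350. REV 231 (-2.91 ± 0.38) and REV 342 (-2.89 ± 0.63) had the next lowest sums. In every library most reads of REV 231 came from its pair with FOR 233. Over single partners REV 231 had a median of -1.49, with 18 of 25 lower without overlap. REV 342 had -0.48, with 11 of 24, so its low sum does not describe most of its partners. At the other end REV 208 had 2908 and 2579 CPM in resting B cells, 4006 and 2104 CPM in pro-B cells, and 2799 and 3017 CPM in MEF (-0.08 ± 0.39). REV 312 (-0.19 ± 0.56) and REV 292 (-0.20 ± 0.26) were near it, and neither passed. Over single partners, however, REV 312 had a median of -1.35, with 20 of 25 lower without overlap. The medians of REV 208 and REV 292 were -0.44 and -0.35. The pair of REV 312 with FOR 306 was among the strongest in resting B cells. REV 300 had the highest fitted fold, but its reads numbered 5 and 35 for resting B, 8 and 641 for pro-B, and 0 and 4 for MEF. Its value rests on so few reads, most of them in pro-B replicate 2, that no fold is given for it.

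Against pro-B cells, 33 of the 51 fragments were lower and 0 higher (17.8% and 18.2% of all sums), with a median of -1.84 and all 51 below 0. FOR 367 (-4.98 ± 0.56), FOR 350 (-4.60 ± 0.54) and REV 231 (-3.69 ± 0.39) passed again, and REV 300, among the 4 lowest fitted folds, did not. Medians over single partners were -1.83 for FOR 367, -3.20 for FOR 350 and -1.86 for REV 231. The smallest folds were those of FOR 216 (-0.12 ± 0.40), REV 208 (-0.16 ± 0.39), REV 357 (-0.16 ± 0.39) and FOR 204 (-0.24 ± 0.39). Of these, FOR 204, REV 208 and FOR 216 are the 3 fragments at the 3′ end of the block. Over single partners their medians were -0.77, -0.71 and 0.22. Fragments further inside had higher medians, as FOR 346 (0.65) and REV 342 (0.46), so the sums alone show no pattern by position. Between pro-B cells and MEF 0 of 51 passed, with a median of 0.19, where 1.38% of all sums were higher and 0.0446% lower. FOR 279 (-1.58 ± 0.38), REV 280 (-1.34 ± 0.35), REV 342 (-0.66 ± 0.59) and FOR 266 (-0.62 ± 0.28) had the lowest folds there. Next to REV 300, REV 333 (1.14 ± 0.46), REV 312 (1.10 ± 0.57) and FOR 306 (1.02 ± 0.46) had the highest. Over single partners the medians of the 4 lowest were -1.95, -0.87, -0.88 and -0.75. Those of REV 333, REV 312 and FOR 306 were -0.48, 0.34 and 0.08, so their high sums do not describe most partners. REV 312 held 97406 and 340295 reads in pro-B replicates 1 and 2. Leaving out either resting B library or MEF replicate 1 gave 0 fragments lower against MEF. Leaving out resting B replicate 1 or 2 gave 3 and 0 against pro-B cells.

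**Figure D4:**
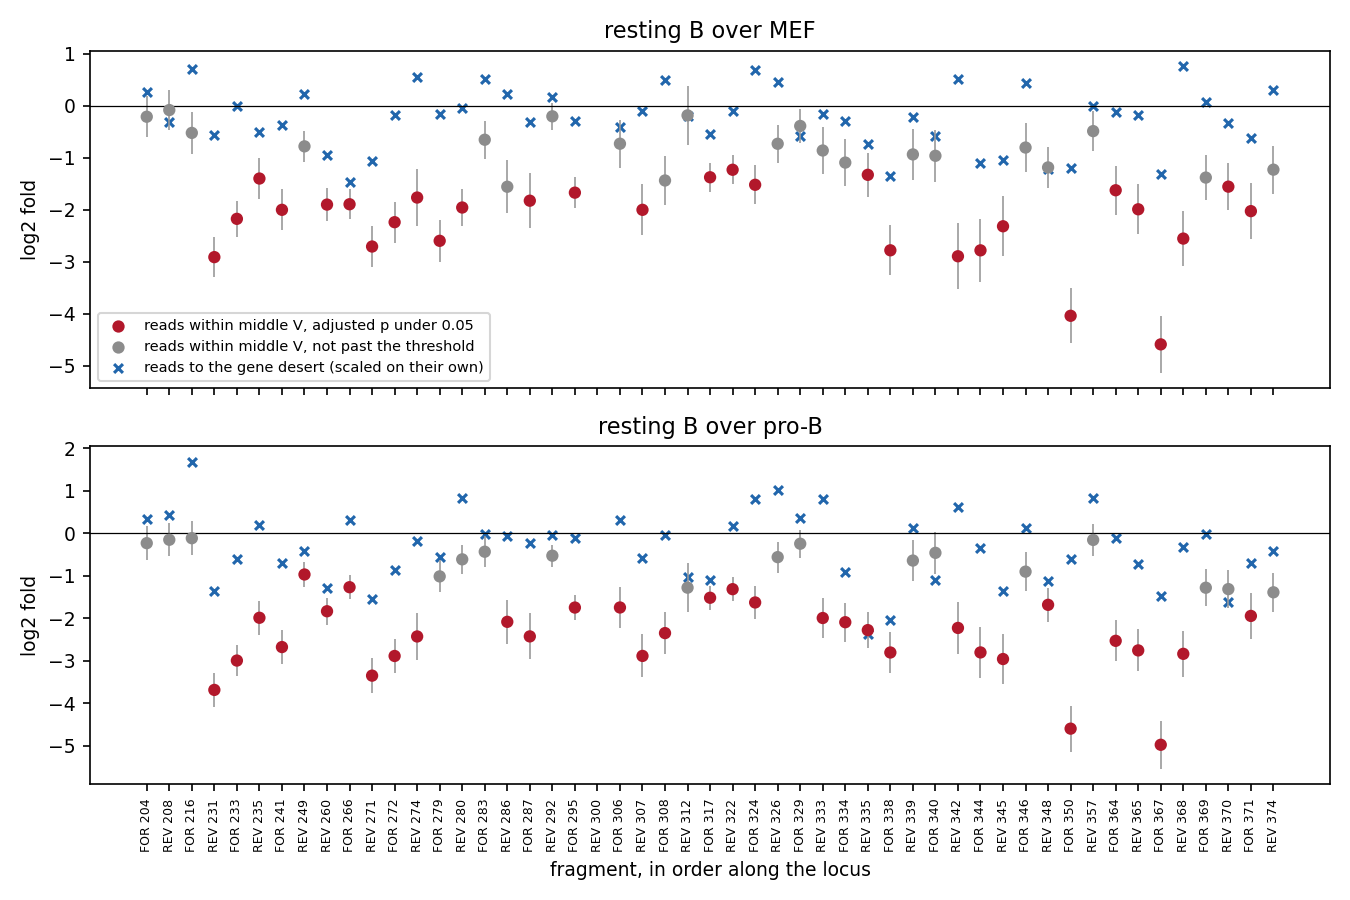
Log2 fold of the reads of each fragment within the middle V genes (circles with SE; red past the threshold, grey not) and with the gene desert on chromosome 5 (blue crosses), for resting B cells over MEF and over pro-B cells. Fragments run in order along the locus, and REV 300 is left out for its few reads. Crosses and circles were scaled separately, so their distance from each other has no meaning; FOR 367 and FOR 350 have the lowest circles in both plots.

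Reads between the same fragments and the gene desert were scaled on their own, by TMM over the 224 Igh fragments. Their folds say how a fragment stood relative to other Igh fragments and cannot be set against the folds within the block. On that scale the median log2 fold over the 51 fragments was -0.18 in resting B cells over MEF, where 0 passed (0.446% of Igh fragments lower, 0% higher). Of the fragments with the lowest sums within the block, FOR 367 had -1.31, FOR 350 -1.19 and REV 231 -0.56, while REV 342 had 0.52. FOR 367, FOR 350 and REV 231 thus lay below the median of the 51 fragments, and REV 342 above it. Over pro-B cells the median was -0.24, with 3 passing as lower (6.25% of Igh fragments lower, 2.68% higher), REV 335 (-2.37), FOR 338 (-2.05) and REV 370 (-1.63). Pro-B over MEF gave a median of 0.19 and 0 calls, and 18 calls with total interchromosomal reads as library size. Unscaled desert reads of FOR 204 numbered 1568 and 1910 for resting B, 232 and 1825 for pro-B, and 632 and 583 for MEF, so the pro-B replicates lay far apart, beside the shares of reads between chromosomes given above. What part the number or recovery of fragments has in the sums within the block was not tested.

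Contacts of the middle V fragments with other V genes were also lower in resting B cells for some fragments, and those with the 3′ flank of the locus were higher than in MEF for others. These counts read against the same shares of all sums, 12.6% lower and 19.2% higher over MEF and 17.8% and 18.2% over pro-B cells. With the proximal V genes, 15 of 51 fragments were lower and 0 higher over MEF (median -0.74), and 15 of 51 each with the distal V genes, near and far (medians -0.53 and -0.62). With the interval between V and D segments, 10 of 50 were lower (median -0.99). Every call with V genes or this interval was thus lower over MEF. With the flank 3′ of the regulatory region, 26 of 50 were higher and 0 lower over MEF (median 1.34), but 7 of 50 higher and 0 lower over pro-B cells (median 0.41), which is under the share of all sums. With the constant region 4 were higher and 1 lower (median 0.35), and with the D-J region 3 and 1 (median 0.27). Over pro-B cells, 19, 25 and 21 of 51 were lower with the proximal, near distal and far distal V genes, and 0, 1 and 0 were higher. With the interval between V and D segments 13 of 50 were lower and 1 higher. With the constant region 11 of 51 were higher and 1 lower over pro-B cells, near the share of all sums. With the 3′ regulatory region 2 were higher and 1 lower over MEF, and 0 and 7 over pro-B cells. The plot of folds by partner region shows that the block itself has the lowest median of the 10 Igh regions in both comparisons. Only the sums within the block hold adjoining pairs, so they are not like those with other regions. Reads within the proximal, near distal and far distal V genes had folds over MEF of -1.19, -1.43 and -1.41, so a low fold within a V block was not particular to the middle V genes.

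**Figure D5:**
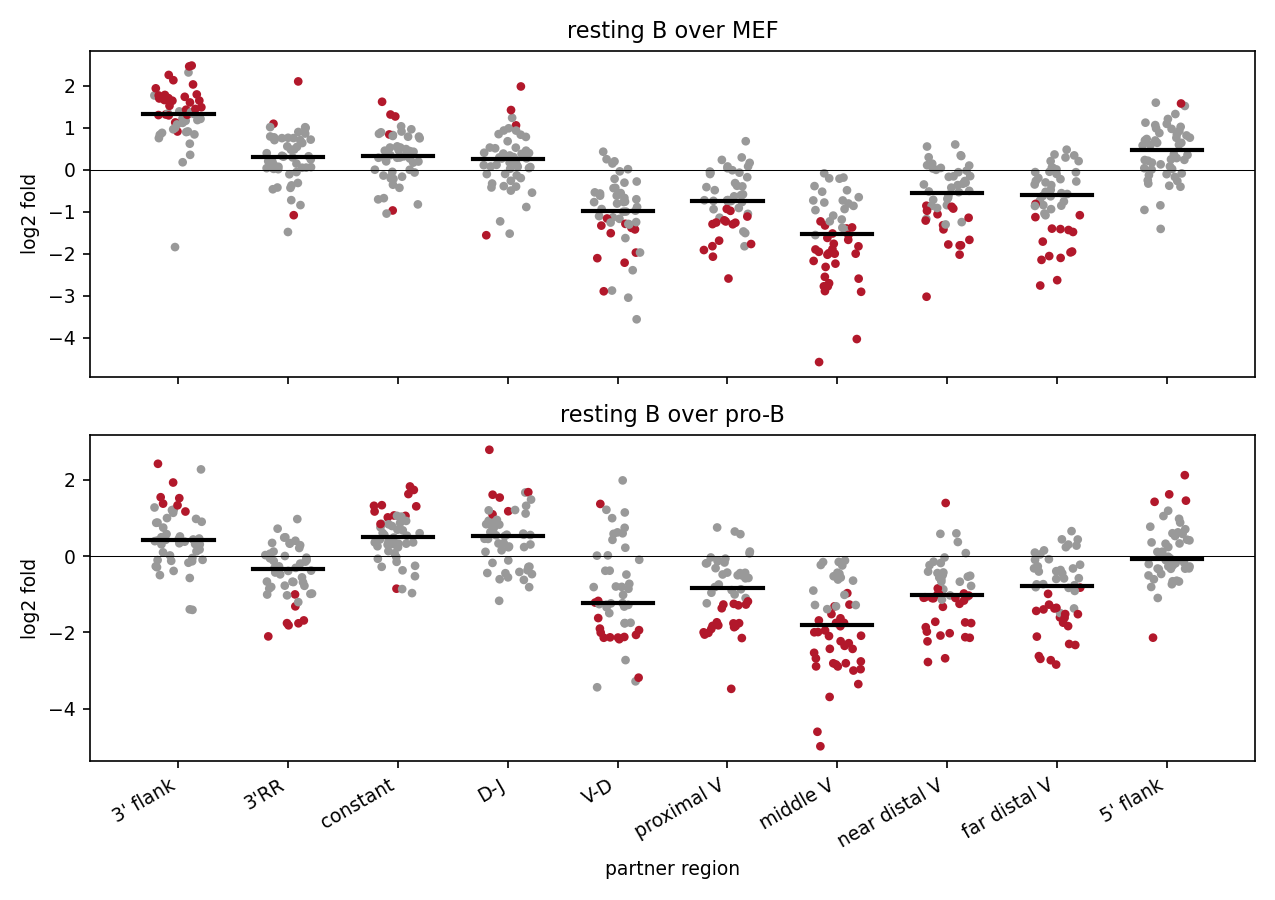
Log2 fold of each middle V fragment's reads summed by partner region, for resting B cells over MEF and over pro-B cells, with REV 300 left out. Red points passed the threshold, grey points did not, and black bars are medians; the partner medians run from the middle V genes themselves at the lowest to the 3′ flank or the D-J region at the highest.

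The change within the middle V genes was then set against the change within the other V blocks, as the log2 ratio of their summed reads in each library, which needs no scaling between libraries. The ratio to the proximal V genes was 1.22 and 1.19 in resting B cells, with 1.39 and 1.60 in pro-B cells and 1.34 and 1.43 in MEF. The ratio to the near distal V genes was 0.20 and 0.14 in resting B cells, with 0.31 and 0.40 in pro-B cells and -0.02 and 0.32 in MEF. The ratio to the far distal V genes was 1.08 and 1.18 in resting B cells, with 1.06 and 1.64 in pro-B cells and 1.04 and 1.16 in MEF. None of these differences between cell types passed the threshold. Resting B cells over MEF gave -0.18 relative to proximal V (95% interval -0.99 to 0.63), 0.02 relative to near distal V (-0.81 to 0.85) and 0.03 relative to far distal V (-0.85 to 0.91; limma, adjusted p = 0.669, 0.959 and 0.959). Over pro-B cells the values were -0.29 (-1.10 to 0.53), -0.19 (-1.02 to 0.65) and -0.22 (-1.10 to 0.66). Differences between V blocks within these intervals were not detectable with 2 libraries a group. With each primer pair counted once, the fold over pro-B cells was 0.51 relative to proximal V and 0.50 relative to far distal V, that is, less reduced in the middle V genes (limma, adjusted p = 0.0490 and 0.0445). Relative to all 54 other region pairs, the middle V genes were lower in 36 in resting B cells over MEF (66.7%) and in 36 over pro-B cells (66.7%; limma), and in 0 between pro-B cells and MEF. The 18 that did not pass included, in both comparisons, all the pairs among V regions and those of the V-D interval with V regions.

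Loops were few. A loop was a pair over 50 kb apart whose residual, after a model of separation and primer strength, reached 2 standard units in both replicates. There was 1 in resting B cells, 0 in pro-B cells and 0 in MEF among the 526 members over 50 kb apart, where 0.905%, 0.374% and 0.208% of 12038 Igh pairs were loops. The loop joined FOR 283 (115390339 to 115396651) with REV 260, 64.3 kb apart, with residuals of 2.43 and 2.32 in resting B cells. It held 2566 and 2196 reads in resting B cells, 4324 and 2584 reads in pro-B cells, while MEF held 3986 and 6759 reads. Its reads were thus not higher in resting B cells (-1.20 ± 0.45 over MEF, edgeR, adjusted p = 0.197). The median fold over the tested partners of REV 260, this pair included, was -3.29. At a residual of at least 3 it was no longer counted.

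The remaining 33 members were left untested because their counts were low. REV 300 was part of 24 of them, 13 had 0 reads in all 6 libraries, and the highest count in any library was 220. A pair at 0 reads allows up to 3 reads, or 0.109 to 0.175 CPM by library, for counting error only. Between 22 and 75 of the 650 pairs had 0 reads in a library, with 75 in pro-B replicate 2.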

How the data were processed

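Each deposited file lists, for 1 library, the raw read count of every primer pair seen, and unlisted pairs were set to 0. Per the submitters' processing notes, Novoalign (version not given in the sources used here) and mm9 were used. No molecular identifiers are recorded, so intervals and floors cover counting error only. Members and lists were chosen with earlier results of these data known, and region edges are approximate.

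Pairs within a chromosome that reached 10 reads in 2 or more libraries entered edgeR 4.0.16 (R 4.3.3, quasi-likelihood, TMM scaling, all 6 libraries, cell type as the only term), with Benjamini-Hochberg adjustment over 11940 Igh pairs. Sums by region pair, by separation and by fragment with Igh partners used the same scaling, whereas reads of fragments with the gene desert were scaled by TMM over fragments. Ratios between region pairs used limma 3.58.1, and DESeq2 1.42.0 was an alternative. SE is the absolute log2 fold over the square root of F. With 2 libraries per group, called biological replicates by the submitters, p-values measure the spread between these samples. The named pairs are the up to 8 in each direction of lowest p among non-overlapping calls (the 4 of lowest p where under 4 pass), the 5 of highest mean CPM per cell type, loops, and the 4 lowest and highest fragments. The fits were first run on simulated data, drawn with the same spread in every group. The replicates here differ in spread between groups, so that run does not show how reliable the calls are. Same-numbered replicates did not deviate together (correlations of 0.08, 0.0023 and -0.03).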

Additional observations from a re-analysis of the deposited data

How the results depend on the processing

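Lower contact within the middle V genes in resting B cells kept its direction under every alternative run for the block sums, but the number of single pairs that passed did not hold. Against MEF, the 19 lower pairs became 29 with total cis reads as library size or with at least 50 reads, 37 with the separation trend removed, 236 with 4 libraries only (4 higher), 144 with DESeq2, 2 with the replicate block, and 0 with pairs over 50 kb or without adjoining fragments (an alternative chosen after seeing the data). Against pro-B cells, the 102 became 55 with desert scaling, 45 with the replicate block, 46 with pairs over 50 kb, 0 with 4 libraries only, and 176 with DESeq2 (7 higher). DESeq2 called 2 pairs higher in pro-B cells than in MEF. The block sum without adjoining fragments fell to -0.99 against MEF (edgeR, adjusted p = 0.069). Each pair counted once turned the pro-B over MEF sum to -0.50. Total cis reads or desert scaling left 1 separation class lower in each resting B comparison, and turned 100 to 200 kb in pro-B over MEF to -0.064 (total) and over 400 kb in resting B over MEF to 0.066 (desert). Fragments called higher were 1 in resting B over MEF under total, desert and block fits, and 4 in pro-B over MEF under total and desert scaling (2 lower under total). The loop count at a residual of 3 was 0, and desert reads scaled by interchromosomal reads gave 18 calls in pro-B over MEF. Except where stated, the cause of these changes was not tested.

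Relative to other V blocks, the small folds changed sign. With each pair counted once they were 0.19, -0.31 and 0.51 relative to proximal V (resting B over MEF, pro-B over MEF, resting B over pro-B), -0.44 and -0.23 relative to near distal V (resting B over MEF, pro-B over MEF), and -0.32 and 0.50 relative to far distal V (pro-B over MEF, resting B over pro-B). Without the top 10 pairs they were -0.059 and -0.035 relative to near distal V, and -0.51 relative to far distal V. Without adjoining fragments the fold relative to near distal V was -0.066. With pairs over 50 kb only, also added later, they were 0.58, -0.056 and 0.64 relative to proximal V and -0.041, -0.26 and 0.22 relative to near distal V.

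With 1 library left out in turn, lower pairs ranged from 0 to 236 against MEF (higher 0 to 4) and from 0 to 240 against pro-B cells (higher 0 to 85), and pro-B over MEF gave 0 to 129 lower and 0 to 37 higher. Block sums ranged from -1.65 to -1.02 (resting B over MEF), -2.04 to -1.32 (resting B over pro-B) and -0.056 to 0.70 (pro-B over MEF). Lower separation classes ranged from 0 to 5 in both resting B comparisons, and higher ones from 0 to 1 in pro-B over MEF. By class, pro-B over MEF ranged from -0.060 to 0.75 under 50 kb, -0.24 to 0.42 at 50 to 100 kb and -0.15 to 0.18 at 100 to 200 kb. Fragments lower ranged from 0 to 38 against MEF (higher 0 to 1), 0 to 40 against pro-B cells, and 0 to 2 in pro-B over MEF (higher 0 to 6). Relative folds ranged from -0.15 to 0.19 (near distal V, resting B over MEF), -0.034 to 0.091, -0.037 to 0.53 and -0.51 to 0.066 (far distal V, resting B over MEF, pro-B over MEF and resting B over pro-B). Desert calls ranged from 0 to 2 over MEF, 0 to 3 in pro-B over MEF and 0 to 14 against pro-B cells. A fit that leaves 1 library in a group assumes that it varies like the others.

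The replicate block left the block sums at -1.32, 0.34 and -1.66 (resting B over MEF, pro-B over MEF, resting B over pro-B), and the numbers share no source that the labels state. The named pairs kept their sign in all 303 alternative values, but those called against MEF no longer passed in 50 of 122 values, and those called against pro-B cells in 40 of 121.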
